A study of Mus musculus with 6 samples.

Results

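The genes described here are 8 genes of meiotic recombination, taken from break formation (Spo11), strand exchange (Dmc1, Brca1 and Brca2), stabilisation of crossover intermediates (Msh4, Msh5 and Hfm1) and crossover resolution (Mlh3). They were chosen by name, as the probe sets that the platform annotation assigns to exactly 1 of these genes. That gave 9 probe sets, 2 of them for Hfm1 and 1 for each other gene, among 35556 probe sets and 19938 named genes on the arrays. Expression was measured in mouse fully-grown oocytes at the germinal-vesicle stage, with 3 samples homozygous for a chemically induced (ENU) Marf1 mutation and 3 Marf1+/+ wild-type samples, each on 1 array. Both genotypes were labelled with the strains C57BL/6J and C3HeB/FeJ. Per the labels, females of both genotypes received 5 IU of eCG at 21 days of age and gave oocytes 46 hours later, at 23 days, and cumulus cells were removed from the oocytes with a glass pipette. Oocytes depend on Marf1 for the return to meiosis, and the comparison asks how transcripts differ where it is mutated. The labels do not say how many females or oocytes made up a sample, so the spread behind the p-values is that between samples and may be partly or wholly technical.

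Meiotic recombination begins when the SPO11 protein cuts DNA on purpose. The ends are trimmed, coated with recombinases, DMC1 among them, and driven into the homologous chromosome. A subset of the joints is stabilised by the MSH4-MSH5 clamp and the HFM1 helicase and is then cut by a nuclease that contains MLH3 to give crossovers. In female mice these steps take place in the fetal ovary. Fully-grown oocytes have long passed them and rest at the end of meiotic prophase, with their chromosomes still held together by the crossovers made before birth. Several of the proteins, BRCA1 and BRCA2 among them, also repair DNA breaks in all cells.

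Of the 8 genes, Mlh3 rose and Brca1 fell in the mutant, and the other 6 did not pass the threshold (limma, Benjamini-Hochberg adjusted p under 0.05 over all probe sets). Over all genes 10.4% passed, 6.40% as higher and 4.04% as lower. In 4 genes, Brca1, Brca2, Msh4 and Msh5, all mutant values lay below all wild-type values, and in Mlh3 all lay above. Over all genes the corresponding shares were 17.7% below and 12.9% above, and among genes brighter than the receptor-gene level defined next they were 25.2% and 17.5%. Over the 8 genes the log2 fold change had a median of -0.07, against -0.04 over all genes. For scale, olfactory and vomeronasal receptor genes, which are made mainly by sensory neurons, served as a dim standard, and the 95th percentile of their mean levels was 4.53 on the log2 scale. A value below this receptor-gene level lies within the range of those genes.

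Facts of the arrays bear on all these values. Marf1 itself fell by 3.05 on the log2 scale in the samples labelled mutant, with a mean of 6.18 ± 0.21 in mutant and 9.23 ± 0.08 in wild-type oocytes (SD, n = 3 each), though the sources used here do not place its probes relative to the mutation. Mutant replicate 3 stood apart. It correlated with the other mutants at 0.970 to 0.973, against 0.985 between those, and its log2 values were the least spread out, with an SD of 2.04 over probe sets where the remaining arrays had 2.14 to 2.20. All 13 oocyte markers lay above the receptor-gene level in both genotypes and 0 passed the threshold in limma. Their summed log2 level ranged from 129.0 to 133.5 on mutant arrays and from 130.9 to 133.3 on wild-type arrays. Of 13 cumulus and granulosa markers, 4 lay below the level in both genotypes and the summed log2 level was 62.2 to 67.3 in mutant and 62.5 to 64.3 in wild-type samples. Mutant replicate 3 gave the lowest oocyte sum and the highest cumulus and granulosa sum of all arrays. It also gave the highest theca and stroma sum, 43.4, against 40.7 to 42.0 on wild-type arrays. Its blood, immune and endothelial sum, 36.8, was the lowest, against 37.0 to 37.9 on wild-type arrays. The log2 median of this array over probe sets, 4.76, was the highest of all. Nr5a2 passed as higher by 1.46, Kitl as higher with means of 5.66 in mutant and 3.72 in wild-type samples, and Ptgs2 as lower, with means of 4.14 in mutant and 5.14 in wild-type samples. Among 10 theca and stroma markers Pdgfra passed as higher, at 4.89 in mutant and 4.22 in wild-type samples. The wild-type means of Kitl and Pdgfra and the mutant mean of Ptgs2 lay below the receptor-gene level, so no fold is given for them. Among 8 blood, immune and endothelial markers Pecam1 passed as lower, with means of 6.20 in mutant and 7.27 in wild-type samples (log2 fold change -1.07). Their part in the results for the recombination genes was not tested.

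**Figure D1:**
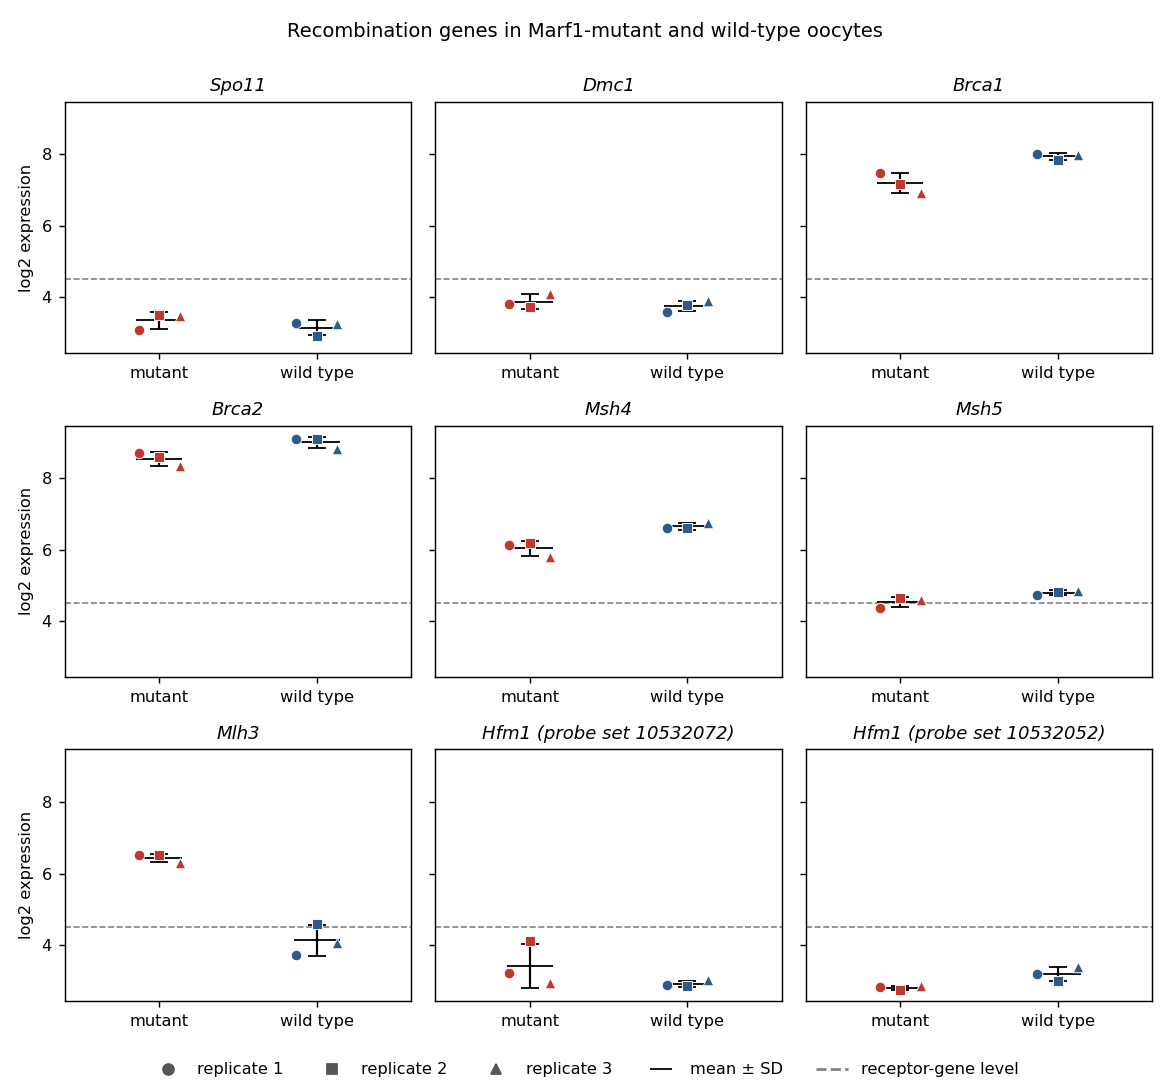
Log2 expression of the 8 recombination genes on each array, mutant (red) left of wild type (blue), 1 panel per probe set. Points are single arrays, bars the mean ± SD of 3 arrays, and the dashed line is the receptor-gene level of 4.53. Mlh3 crosses that line between the genotypes, while Spo11, Dmc1 and Hfm1 lie below it in both.

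Spo11, which makes the breaks, was dim in both genotypes. Its probe set read 3.09, 3.52 and 3.49 in mutant replicates 1 to 3, against 3.30, 2.91 and 3.26 in wild-type replicates 1 to 3. The groups overlapped, and every value was below the receptor-gene level. The log2 fold change was 0.21 with a 95% interval from -0.21 to 0.63 (limma adjusted p = 0.635). At this signal no difference in Spo11 was detected, and a fall in particular could go unseen, so the absence of a difference is not shown.

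Dmc1, the recombinase that only meiotic cells make, gave a similar picture. It read 3.81, 3.72 and 4.11 in mutant oocytes, against 3.60, 3.78 and 3.90 in wild-type oocytes. The ranges overlapped, all below the receptor-gene level. The log2 fold change was 0.12, with an interval from -0.26 to 0.50 (limma adjusted p = 0.791).

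Brca1 acts with its partner BARD1 as a ubiquitin ligase and helps to trim and process broken ends before strand exchange. It was well above the receptor-gene level in both genotypes. Brca1 read 7.48, 7.17 and 6.93 in mutant replicates 1 to 3, against 8.01, 7.83 and 7.98 in wild type. Each mutant value lay below the lowest wild-type value, and mutant replicate 3 was the lowest of the 6 arrays. Means were 7.19 ± 0.28 in mutant and 7.94 ± 0.10 in wild-type oocytes. Brca1 was thus 1.68-fold lower, at -0.75 with an SE of 0.17 on the log2 scale (limma adjusted p = 0.0409). With mutant replicate 3 left out it was -0.62, with an adjusted p of 0.0648. The call held in 1 of the 6 fits that left out an array, the fit without mutant replicate 1, and ended in the other 5, at adjusted p up to 0.144. It also ended after cyclic loess normalization (0.0542), after median centring (0.0918) and with the replicate block (0.0711).

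Brca2 loads recombinases such as DMC1 onto the trimmed ends. It read 8.70, 8.59 and 8.33 in mutant replicates, against 9.08, 9.09 and 8.82 in wild type. The groups did not overlap, and the gap between the highest mutant and the lowest wild-type array was smaller than the spread within either genotype. The log2 fold change was -0.46 (SE 0.16, interval -0.83 to -0.09), which missed the threshold (limma adjusted p = 0.151) and passed in none of the alternatives tried, at 0.0759 to 0.363.

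Msh4 and Msh5 encode the partners of a clamp that slides along recombination joints and marks those that can become crossovers. Msh4 read 6.12, 6.20 and 5.79 in mutant oocytes, against 6.60, 6.60 and 6.76 in wild-type oocytes. The groups were separate, with mutant replicate 3 again the lowest array. Its log2 fold change of -0.62 (SE 0.16, 1.53-fold lower) came just short of the threshold (limma adjusted p = 0.0575). Of the 8 alternatives that kept all arrays, Msh4 passed the threshold in 4. These were quantile normalization (adjusted p = 0.0277), array quality weights (0.0398), dim rows filtered out (0.0282) and a single row for each gene (0.0201). Msh4 missed it after cyclic loess normalization (0.0909) or median centring (0.124), and with an intensity trend (0.0613) or the replicate block (0.128). It also missed it without any 1 array (0.0801 to 0.197).

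Msh5 lay near the receptor-gene level. It read 4.37, 4.64 and 4.61 in mutant oocytes, against 4.73, 4.83 and 4.85 in wild-type oocytes. All mutant values were lower, with mutant replicate 1 the lowest of all. The log2 fold change was -0.26 (SE 0.14, interval -0.59 to 0.06, limma adjusted p = 0.369). Both partners of the clamp thus had negative values, neither past the threshold.

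Hfm1, the mouse counterpart of the yeast helicase Mer3, had 2 probe sets that went opposite ways. Probe set 10532072 read 3.22, 4.12 and 2.95 in mutant oocytes, against 2.88, 2.86 and 3.02 in wild-type oocytes. Mutant replicate 2 stood above the rest and the groups overlapped. Probe set 10532052 read 2.83, 2.76 and 2.86 in mutant oocytes, against 3.19, 3.01 and 3.40 in wild type, with no overlap. The log2 fold changes were 0.51 (SE 0.29, limma adjusted p = 0.401) and -0.38 (SE 0.15, adjusted p = 0.198). Every value of both lay below the receptor-gene level, so no direction is given for Hfm1.

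Mlh3 encodes the subunit that carries the nuclease site of the complex that cuts joints into crossovers. Its probe set read 6.51, 6.52 and 6.31 in mutant replicates 1 to 3, against 3.74, 4.59 and 4.08 in wild-type replicates 1 to 3. The mutant arrays lay close together, and each was above the highest wild-type array by more than the whole spread of the wild-type arrays. Means were 6.45 ± 0.12 in mutant and 4.14 ± 0.43 in wild-type oocytes. The log2 fold change was 2.31 (SE 0.22, interval 1.79 to 2.83, 4.96-fold higher, limma adjusted p = 9.36e-04). Since the wild-type mean lay below the receptor-gene level, the fold may be a lower bound. The rise passed the threshold in all 6 fits that left out an array (adjusted p 0.00140 to 0.00733) and in the 8 other alternatives. An exact permutation test of a single gene in 3 against 3 samples cannot go below p = 0.1 (two-sided). Mlh3, Brca1, Brca2, Msh4, Msh5 and the dim Hfm1 probe set 10532052 all gave that value.

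**Figure D2:**
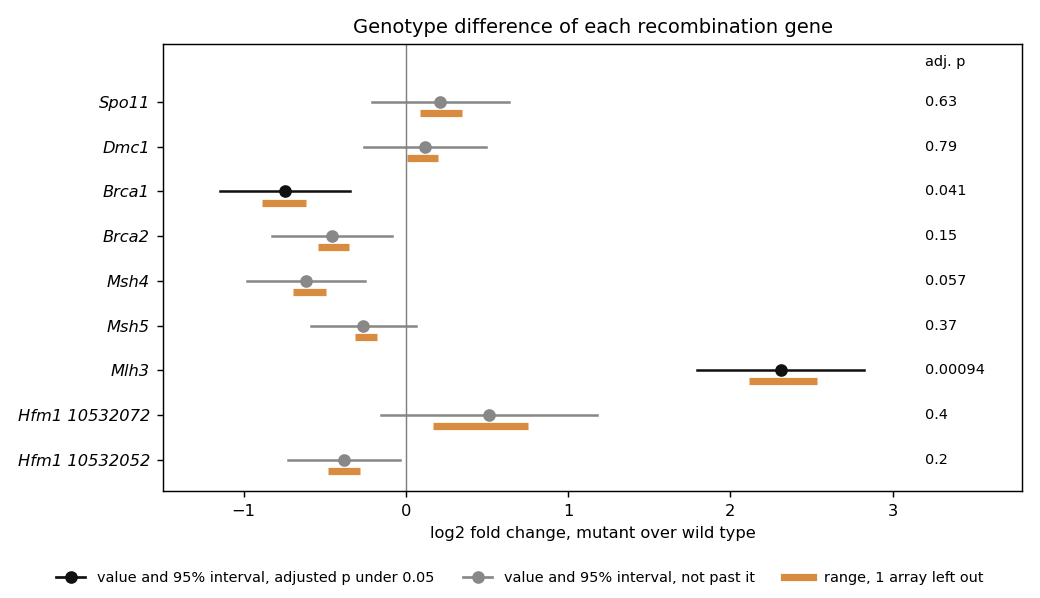
Log2 fold change of each recombination gene, mutant over wild type, with its 95% interval from limma (black where the adjusted p was under 0.05, grey otherwise). The orange bar is the range when 1 array was left out, and the adjusted p stands at the right. Mlh3 is at 2.31 and Brca1 at -0.75, while the intervals of Spo11, Dmc1, Msh5 and 1 Hfm1 probe set include 0.

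The promoters of the called genes are shown as annotated, and where transcription starts in these oocytes was not measured. That of Msh5 is shown as a contrast, chosen because the search found a germline motif in it. The windows shown are the 250 bases before the annotated start in RefSeq (GRCm38.p6), written 5′ to 3′ on the strand of the gene. Mlh3 had 2 promoter entries, and only the first was searched and is shown. Capitals mark matches on either strand to CCAAT (the CCAAT box), TCCCGC (the core of the site of E2F6, a repressor of germline genes in somatic cells) or CNCCTCAG (a motif reported for STRA8, a regulator of meiotic entry). A search for CACGTG, the E-box, found 0 matches in the 7 genes with a promoter in the table. The windows are chr12:85270600-85270849, minus strand, for Mlh3, chr11:101551956-101552205, minus strand, for Brca1 and chr17:35046623-35046872, minus strand, for Msh5.
Mlh3: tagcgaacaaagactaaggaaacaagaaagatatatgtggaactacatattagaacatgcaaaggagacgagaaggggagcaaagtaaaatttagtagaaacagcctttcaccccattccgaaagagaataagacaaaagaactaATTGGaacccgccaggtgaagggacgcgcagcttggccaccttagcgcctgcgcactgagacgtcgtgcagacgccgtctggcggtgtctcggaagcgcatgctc
Brca1: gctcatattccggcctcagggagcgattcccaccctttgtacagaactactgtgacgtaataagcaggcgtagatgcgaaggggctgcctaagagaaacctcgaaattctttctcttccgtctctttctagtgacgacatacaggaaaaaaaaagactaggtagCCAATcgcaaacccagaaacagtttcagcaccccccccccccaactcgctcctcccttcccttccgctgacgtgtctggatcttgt
Msh5: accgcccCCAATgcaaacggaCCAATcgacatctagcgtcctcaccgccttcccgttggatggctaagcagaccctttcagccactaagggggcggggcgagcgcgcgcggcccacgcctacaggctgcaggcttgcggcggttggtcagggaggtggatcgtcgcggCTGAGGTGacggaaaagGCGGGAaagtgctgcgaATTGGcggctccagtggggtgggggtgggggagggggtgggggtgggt

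The Mlh3 window, 48.8% G and C, held 1 CCAAT match, on the opposite strand and beginning 105 bases before the start. The Brca1 window, 51.2% G and C, held 1, on the same strand and beginning 86 bases before the start. Neither held TCCCGC or CNCCTCAG. The Msh5 window held 3 CCAAT matches, 1 TCCCGC and 1 CNCCTCAG, which did not overlap each other. TCCCGC was found in 3 of the 7 promoters, those of Dmc1, Brca2 and Msh5, and in 16.9% of all 27025 promoters of the same length. CNCCTCAG was found in 2 of 7, Msh5 and Hfm1, against 6.39% of all, CCAAT in 3 of 7 against 34.5%, and CACGTG in 6.05% of all. TCCCGC and CNCCTCAG are themselves rich in G and C. The windows of Dmc1, Brca2, Msh5 and Hfm1 held 68.8%, 54.4%, 67.2% and 75.6% G and C. That of Msh4, with neither motif, held 43.6%, and the median over all promoters was 52%. The shares were not matched for this. The Spo11 promoter is not shown. These matches are descriptions of the sequence, and no binding was measured.

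The neighbours of the called genes on the chromosome did not pass the threshold. Mlh3 lies on chromosome 12 between Eif2b2, a subunit of the translation factor eIF2B, and Acyp1, an acylphosphatase. Eif2b2 read 7.06, 7.10 and 6.00 in mutant oocytes, against 7.53, 7.23 and 7.59 in wild type, and Acyp1 read 7.24, 7.73 and 7.19 in mutant oocytes, against 7.89, 8.13 and 7.84 in wild type. All mutant values of both neighbours were below their wild-type values, with log2 fold changes of -0.73 (limma adjusted p = 0.225) and -0.57 (0.128), opposite in sign to Mlh3. Brca1 lies on chromosome 11 between Rnd2, a small GTPase with a log2 fold change of 0.40 (adjusted p = 0.278), and Nbr1, an autophagy receptor with -0.55 (0.143). Of the 16 nearest measured neighbours of the 8 genes, both neighbours of Hfm1 passed as higher and the other 14 did not pass, where 10.4% of all genes passed, 6.40% as higher. Both were singled out after their values were seen. Zfp644, a zinc-finger gene, averaged 9.25 ± 0.24 in mutant and 6.53 ± 0.12 in wild-type oocytes (log2 fold change 2.72, SE 0.17, limma adjusted p = 1.58e-04). Cdc7, a kinase that starts DNA replication, averaged 7.21 ± 0.16 in mutant and 5.54 ± 0.45 in wild-type oocytes (1.67, SE 0.23, adjusted p = 0.00530). Hfm1 itself, between them, stayed below the receptor-gene level in both genotypes.

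**Figure D3:**
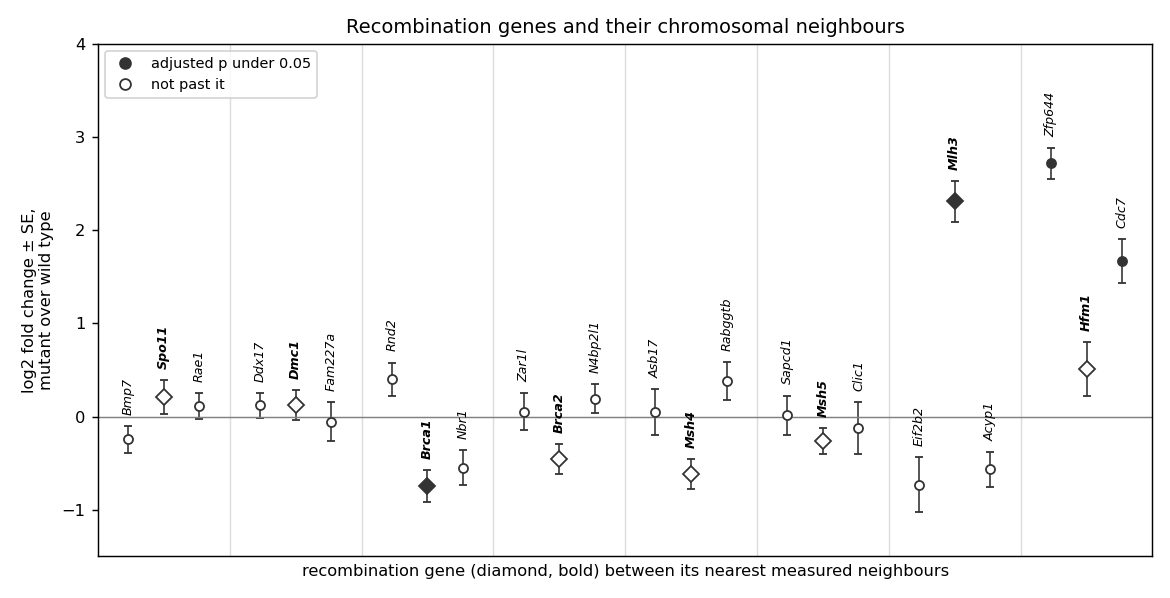
Log2 fold change ± SE, mutant over wild type, of each recombination gene (diamond) and its nearest measured neighbour on either side on the chromosome (circles). Filled symbols had a limma adjusted p under 0.05. Zfp644 at 2.72 and Cdc7 at 1.67 flank Hfm1, while both neighbours of Mlh3 lie below 0.

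Among the 72 other measured genes of the recombination lists, 3 rose and 6 fell. That is 12.5%, against 10.4% of all genes and 16.3% of genes above the receptor-gene level, and 11 of the 72 lay below that level in both genotypes. Their median log2 fold change was -0.15, against -0.04 over all genes and -0.09 above that level, and 50 of the 72 had a negative value (69.4%, against 56.5% of all genes and 60.7% of genes above the receptor-gene level). All mutant values lay below all wild-type values in 20 of them (27.8%) and above in 8 (11.1%), against 17.7% and 12.9% of all genes and 25.2% and 17.5% of genes above the receptor-gene level.

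In break formation 1 of 10 other genes rose and 1 fell. Hormad1, a protein of the chromosome axis on which breaks are made, rose to 6.98 ± 0.43 in mutant oocytes, against 5.31 ± 0.26 in wild-type oocytes (log2 fold change 1.67, SE 0.24, limma adjusted p = 0.00595). It had 2 probe sets. Only the brighter is given, and its direction was not compared with that of the other. Mei4, a partner of REC114 in the machinery that lets SPO11 cut, fell to 4.77 ± 0.04, against 5.61 ± 0.33 in wild type (-0.84, SE 0.18, adjusted p = 0.0332). The call for Mei4 ended without any 1 array other than wild-type replicate 1 (adjusted p up to 0.122). Rec114 itself stood at -0.28 (adjusted p = 0.439), and Top6bl, listed as Gm960, the subunit that works with SPO11, one of 0.04 (0.938).

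In end resection and damage signalling 0 of 10 rose and 1 fell. That was Dna2, a nuclease and helicase that trims ends, at 5.40 ± 0.30 in mutant and 6.25 ± 0.19 in wild-type oocytes (log2 fold change -0.84, SE 0.19, limma adjusted p = 0.0380). The call ended without any 1 array (0.0511 to 0.140). At unadjusted p under 0.05 in limma 1 of the 10 genes was higher and 4 were lower, where 11.0% of all genes were higher and 13.5% lower, and 16.2% and 20.4% of those above the receptor-gene level. Of the complex that first cuts at the ends, Mre11a had a log2 fold change of -0.01, Rad50 of -0.38 and Nbn of -0.29, none past the threshold (adjusted p 0.139 to 0.984).

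Strand exchange, the step of Dmc1, Brca1 and Brca2, had 25 other measured genes, of which 1 rose and 1 fell. Psmc3ip, also known as Hop2, which helps DMC1 to invade the homologous strand, fell to 7.43 ± 0.19 in mutant oocytes, against 8.19 ± 0.12 in wild-type oocytes (log2 fold change -0.75, SE 0.15, limma adjusted p = 0.0255). Rad51ap1, which stimulates strand invasion, rose to 6.13 ± 0.36 in mutant, against 5.21 ± 0.26 in wild-type oocytes (0.92, SE 0.22, adjusted p = 0.0484). Psmc3ip passed in 2 of the 6 fits that left out an array, those without mutant replicate 1 or 3, and Rad51ap1 in 1, that without mutant replicate 3. Their highest adjusted p in those fits were 0.107 and 0.168. Neither Bard1 nor Palb2 passed. For Bard1, the partner of BRCA1, the log2 difference was -0.33 (SE 0.24, adjusted p = 0.558), and for Palb2, which joins BRCA1 to BRCA2, it was -0.62 (SE 0.33, adjusted p = 0.368). Palb2 read 6.48, 7.12 and 5.68 in mutant oocytes, against 7.08, 6.96 and 7.09 in wild type, so its spread lay in the mutant arrays.

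Among 9 other genes of crossover intermediates, the step of Msh4, Msh5 and Hfm1, 1 rose and 0 fell. Trip13, an ATPase that removes HORMAD proteins from chromosome axes, rose to 7.38 ± 0.17 in mutant oocytes, against 6.31 ± 0.08 in wild-type oocytes (log2 fold change 1.06, SE 0.15, limma adjusted p = 0.00461). It passed in every fit that left out an array. Shoc1, a relative of yeast Zip2, showed a log2 difference of -0.28 (adjusted p = 0.633), the ubiquitin ligase gene Ccnb1ip1 of -0.36 (0.429) and Cdk2, whose kinase sits at crossover sites, of -0.04 (0.932).

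Resolution and the pathways that oppose crossovers, the step of Mlh3, had 13 other measured genes, of which 3 fell and 0 rose. Gen1, a nuclease that cuts 4-way DNA junctions, fell to 6.95 ± 0.50 in mutant oocytes, against 8.29 ± 0.12 in wild-type oocytes (log2 fold change -1.34, SE 0.25, limma adjusted p = 0.0169). Brip1, a helicase that binds BRCA1, fell to 7.50 ± 0.49 in mutant, against 8.81 ± 0.23 in wild-type oocytes (-1.31, SE 0.26, adjusted p = 0.0225). Blm, the helicase that takes joints apart, fell to 7.66 ± 0.21 in mutant, against 8.32 ± 0.11 in wild-type oocytes (-0.66, SE 0.16, adjusted p = 0.0447). For Gen1 and Brip1 mutant replicate 3 was the lowest array, and without it both still passed, at -1.06 (adjusted p = 0.00879) and -1.03 (0.0175). Both lost the call without any 1 wild-type array (up to 0.0732 and 0.0887), and Blm lost it without any 1 array (0.0644 to 0.162). The partners of BLM, Rmi1 and Top3a, had log2 fold changes of -0.06 (adjusted p = 0.911) and 0.38 (0.160). Another set of resolving nucleases, Mus81 and Eme1, had -0.31 (0.411) and 0.71 (0.0580). Median centring also ended the calls for Dna2, Rad51ap1, Brip1 and Blm, cyclic loess normalization that for Dna2 and quantile normalization that for Rad51ap1. The replicate block ended those for Mei4, Dna2, Psmc3ip and Blm (limma adjusted p 0.0544 to 0.0827).

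**Figure D4:**
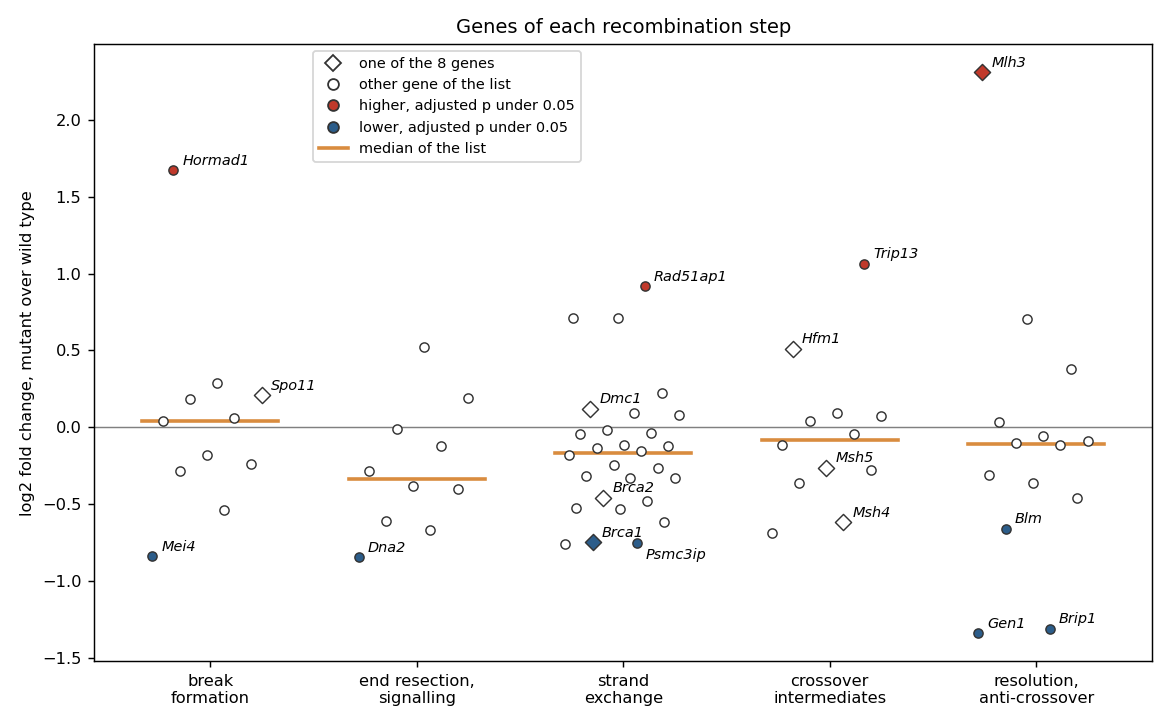
Log2 fold change, mutant over wild type, of the measured genes of each recombination step. Diamonds are the 8 genes and circles the other genes of each list, filled red (higher) or blue (lower) where the limma adjusted p was under 0.05, and the orange line is the median of the list. Mlh3 at 2.31 and Hormad1 at 1.67 lie at the top, and Gen1 and Brip1, at -1.34 and -1.31, at the bottom.

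The protein families of the 8 genes were measured in part. Of 9 relatives, all above the receptor-gene level in both genotypes, 0 passed the threshold in limma. Over all genes 10.4% passed, and 16.3% of those above that level. Without adjustment 1 relative was higher and 2 were lower at p under 0.05 in limma. The shares were 11.0% and 13.5% of all genes, and 16.2% and 20.4% of genes above the receptor-gene level. Mlh3 belongs to the MutL family, whose mismatch repair members Pms1 and Pms2 had log2 fold changes of 0.19 (SE 0.14, adjusted p = 0.548) and -0.36 (SE 0.18, 0.348), against 2.31 for Mlh3. Msh4 and Msh5 belong to the MutS family, whose mismatch sensors Msh3 and Msh6 had -0.32 (SE 0.15, 0.280) and 0.49 (SE 0.13, 0.0728). Msh6 read 9.30, 9.46 and 9.22 in mutant oocytes, against 8.87, 8.85 and 8.79 in wild type, with no overlap, and it passed in 6 of the 8 alternatives that kept all arrays. The relatives of Dmc1, Rad51b, Rad51c and Rad51d, had -0.11, -0.48 and -0.24 (adjusted p 0.172 to 0.823). The helicases with a domain layout like that of Hfm1, Ascc3 and Snrnp200, had -0.18 (0.666) and -0.38 (0.174).

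Other genes followed Mlh3 or Brca1 closely over the 6 arrays. After the mean of each gene was subtracted, the profile nearest to that of Mlh3 was that of Exoc2, a subunit of the exocyst, at a Euclidean distance of 0.155 on the log2 scale, with a log2 fold change of 2.24. Pwp1 (distance 0.250) and Zfp707 (0.287) came next, at 2.33 and 2.49. The profiles nearest to that of Brca1 were those of Bin2 (0.107), the ubiquitin ligase gene Smurf1 (0.108) and Scel (0.123), with log2 fold changes of -0.81, -0.78 and -0.75. With 3 arrays a genotype, this likeness rests mostly on the genotype difference itself.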

How the data were processed

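RNA from 3 mutant and 3 wild-type oocyte samples was hybridised, 1 sample to an array. The authors deposited 1 log2 value for each probe set and array, to 2 decimals. Per the submitters' processing notes, the authors used GCOS, Affymetrix Expression Console 1.1 and RMA. As usually run, RMA corrects background, brings arrays to a common distribution and summarises probes. The deposited arrays did not share 1 distribution, with log2 medians of 4.56 to 4.76 and SDs of 2.04 to 2.20 over probe sets. Differences are read relative to the other probe sets, and a change in total RNA is not visible. The number of arrays limits the precision.

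Of 35556 rows, 21789 named 1 gene, 1621 several and 12146 none here. Where a gene had several rows, counts and the values given for it used the row with the highest mean. Such genes include Hormad1, Nbn and Rmi1, with 2 rows each, and Bard1, with 3. For Hfm1 both rows are given. The genotype difference was fitted by limma 3.58.1 under R 4.3.3 (genotype as the only term, two-sided, adjusted over all rows). The fit was also run on simulated arrays with known changes, and that outcome is not used as support here. Alternatives were 3 normalizations, a filter on dim rows, 1 row per gene, an intensity trend, array weights, a replicate block and leaving out each array. Listed names were matched to symbols, then to RefSeq synonyms by Entrez ID. Named genes were the 8 members, list genes past the threshold, relatives of members, the neighbours and 3 most alike genes of each called member, and markers past the threshold. Other named genes were chosen after their values were seen. The members and lists were chosen with earlier results of these data known. Replicate numbers were not treated as pairs in the main fit. The deviations of same-numbered mutant and wild-type arrays correlated at 0.15, -0.10 and 0.03. With 3 arrays a genotype, such values cannot decide whether the samples were paired.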

Additional observations from a re-analysis of the deposited data

How the results depend on the processing

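The rise of Mlh3 kept its direction and its call under all 14 alternatives, with log2 fold changes of 2.11 to 2.54. Of the 8 genes, 2 passed as reported and 1, Mlh3, passed after cyclic loess normalization, median centring or with the replicate block, where Brca1 had adjusted p of 0.0542, 0.0918 and 0.0711. With Msh4, 3 passed after quantile normalization, among rows above the median level, with 1 row per gene or with array weights. Leaving out 1 array gave 1 to 2. Over all probe sets 2765 passed, 1946 with the replicate block and 1368 to 2804 with 1 array left out. Whether the replicate numbers pair the samples was not settled. In deviations from the group mean, mutant replicate 1 correlated best with its own number, at 0.15. Mutant replicate 2 did so with wild-type replicate 1, at 0.14, and mutant replicate 3 with wild-type replicate 2, at 0.18. Of the calls over all probe sets 61.5% were higher, and 73.8% after cyclic loess. In break formation 2 genes passed, 1 with the replicate block and 1 to 2 without 1 array. In resection 1 passed, and 0 after cyclic loess, after median centring, with the replicate block or without any 1 array. In strand exchange 3 passed, 1 after median centring or with the replicate block, 5 among rows above the median level or with 1 row per gene, and 0 to 3 without 1 array. Among crossover intermediates 1 passed, also without any 1 array, and 2 after quantile normalization, among rows above the median level, with 1 row per gene or with array weights, Msh4 being the second. In resolution 4 passed, 2 after median centring, 3 with the replicate block, 5 after quantile normalization, among rows above the median level, with 1 row per gene or with array weights, 6 after cyclic loess and 1 to 4 without 1 array. Among relatives 0 passed in limma, also without any 1 array, and 1, Msh6, after quantile or cyclic loess normalization, among rows above the median level, with 1 row per gene, an intensity trend or array weights. Rad51b, at -0.23 to 0.01 with 1 array left out, changed sign without mutant replicate 3, and Hfm1 with its other probe set (-0.38). The cause of these shifts was not tested. Low signal limits Spo11, Dmc1 and Hfm1.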

Other observations

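Some genes that act before or beside Spo11 were separate between the genotypes at signals too low for a direction. Prdm9, which marks the sites of breaks, read 3.18, 3.26 and 3.10 in mutant oocytes, against 3.45, 3.52 and 4.19 in wild-type oocytes, and Mei1, needed for break formation, read 4.22, 4.24 and 4.27 in mutant oocytes, against 4.45, 4.53 and 4.47 in wild type. Both lay below the receptor-gene level in both genotypes and neither passed the threshold (limma adjusted p = 0.206 and 0.352). Fignl1, which takes recombinases off DNA, read 9.71, 9.88 and 9.25 in mutant oocytes, against 8.98, 9.11 and 8.62 in wild-type oocytes (log2 fold change 0.71, adjusted p = 0.0967). These genes were picked after their values were seen.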
